A study of Homo sapiens with 18 samples.

Results

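The 41 genes described here encode ribosome biogenesis factors, the proteins that make ribosomal RNA (rRNA), modify and cut it, and assemble it with ribosomal proteins. They were listed by name for their known function, and the rule used no measured value, though earlier results of these data were known. All 41 of 41 were found among the 19784 genes of the deposited tables. Their RNA was measured by poly(A) RNA sequencing in 18 libraries of THP-1, a cell line from a monocytic leukaemia that carries an MLL-AF9 fusion gene. The study, by its title, concerns epigenetic control over the type I interferon response and self-renewal, and the gene varied is PHF8, a histone demethylase of the JmjC class. The first experiment held cells labelled with the genotypes PHF8, F279S and wt (n = 4 libraries each). F279S is known as a catalytically inactive form of PHF8, wt is the line without an added form by its label, and the labels give these libraries neither a treatment nor a time. The second experiment held 3 lines harvested on day 3 (n = 2 libraries each). ERDD carries the genotype label PHF8DD with 4-hydroxytamoxifen (4-OHT, 100 nM), ERPHF8 the label PHF8 with no treatment named, and ERAA the label PHF8AA with 4-OHT. Per the labels, 4-OHT served to induce the AA and DD forms, the letters ER, AA and DD are not spelled out, and the way the forms were introduced is not given nor whether a line is 1 clone. The labels do not say that replicates came from separate cultures, so p-values measure the spread between these libraries, which may be technical.

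Ribosomes are built in the nucleolus, where RNA polymerase I transcribes the rDNA repeats into a long precursor rRNA. Small nucleolar ribonucleoproteins (snoRNPs) guide its chemical modification, those of the box C/D class for ribose methylation and those of the box H/ACA class for pseudouridine. A large assembly called the small subunit processome and the PeBoW complex then carry the small and large subunits through cutting and folding. The genes of this pathway are known as a coordinated set that tracks growth and proliferation, and MYC, which binds the E-box sequence CACGTG, is a known activator of many of them.

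Promoters of 34 of the 41 genes could be matched in RefSeq (GRCh38.p14, the first listed start of each gene). CACGTG, which reads the same on both strands, stood in the 250 bases before the start in 4 of the 34 (11.8%): EBNA1BP2, NAT10, UTP20 and NOP10. It stood in 16 of 109 promoters (14.7%) of the pathway's other genes, in 7.89% of the promoters of genes in the deposited tables and in 6.49% of all 27305 promoters of the RefSeq table. Of the 4 members with CACGTG, the promoters of EBNA1BP2 and NOP10 are shown because each gene was among the smallest p of a comparison below. Each is the 250 bases before the RefSeq start, 5′ to 3′ on the gene's minus strand, with CACGTG in capitals (EBNA1BP2 at chr1:43172571-43172820 and NOP10 at chr15:34343137-34343386). A match describes the letters only.
EBNA1BP2: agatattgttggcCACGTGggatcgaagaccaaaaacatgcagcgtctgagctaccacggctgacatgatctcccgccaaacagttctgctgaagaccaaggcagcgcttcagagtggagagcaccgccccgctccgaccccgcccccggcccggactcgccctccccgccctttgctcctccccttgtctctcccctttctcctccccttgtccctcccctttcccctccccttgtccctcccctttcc
NOP10: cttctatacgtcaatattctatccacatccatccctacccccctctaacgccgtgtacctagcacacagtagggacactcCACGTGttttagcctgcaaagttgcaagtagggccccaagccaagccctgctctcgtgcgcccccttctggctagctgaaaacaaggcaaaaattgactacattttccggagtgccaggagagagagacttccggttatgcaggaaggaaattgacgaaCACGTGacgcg
In EBNA1BP2 the motif starts 237 bases before the gene start. In NOP10 it occurs 2 times, at 170 and 11 bases before it. The deposited span of EBNA1BP2 runs beyond this RefSeq start, so the promoter shown lies inside that span. The deposited span of NOP10 ends at 34343177, so the part of its promoter nearest the start, with the CACGTG at 11 bases, also lies inside its span.

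All 41 genes were expressed in every library. Levels are given as CPM, the reads of a gene per 1 M reads of its library. To compare genes they were divided by the length of the gene's longest principal transcript, untranslated parts included. On that scale nucleophosmin, NPM1, a nucleolar histone and ribosome chaperone, averaged 509 CPM per kb over the 18 libraries and nucleolin, NCL, an abundant nucleolar RNA-binding protein, 327 CPM per kb. UTP20, a scaffold of the small subunit processome, was lowest at 3.42 CPM per kb, followed by WDR12, a PeBoW subunit, at 7.82 CPM per kb. The deposited values had been divided by the full gene span, introns included, and reads can be shared between overlapping genes. Of the 41 genes, 25 overlap no other gene of the table, and the other 16 can share reads with a neighbour to an unknown extent. PNO1 is the extreme case, with 33.7 CPM on average beside an overlapping gene at 161 CPM. The smallest number of reads behind any value was 394, for UTP20 in wt library 4.

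**Figure D1:**
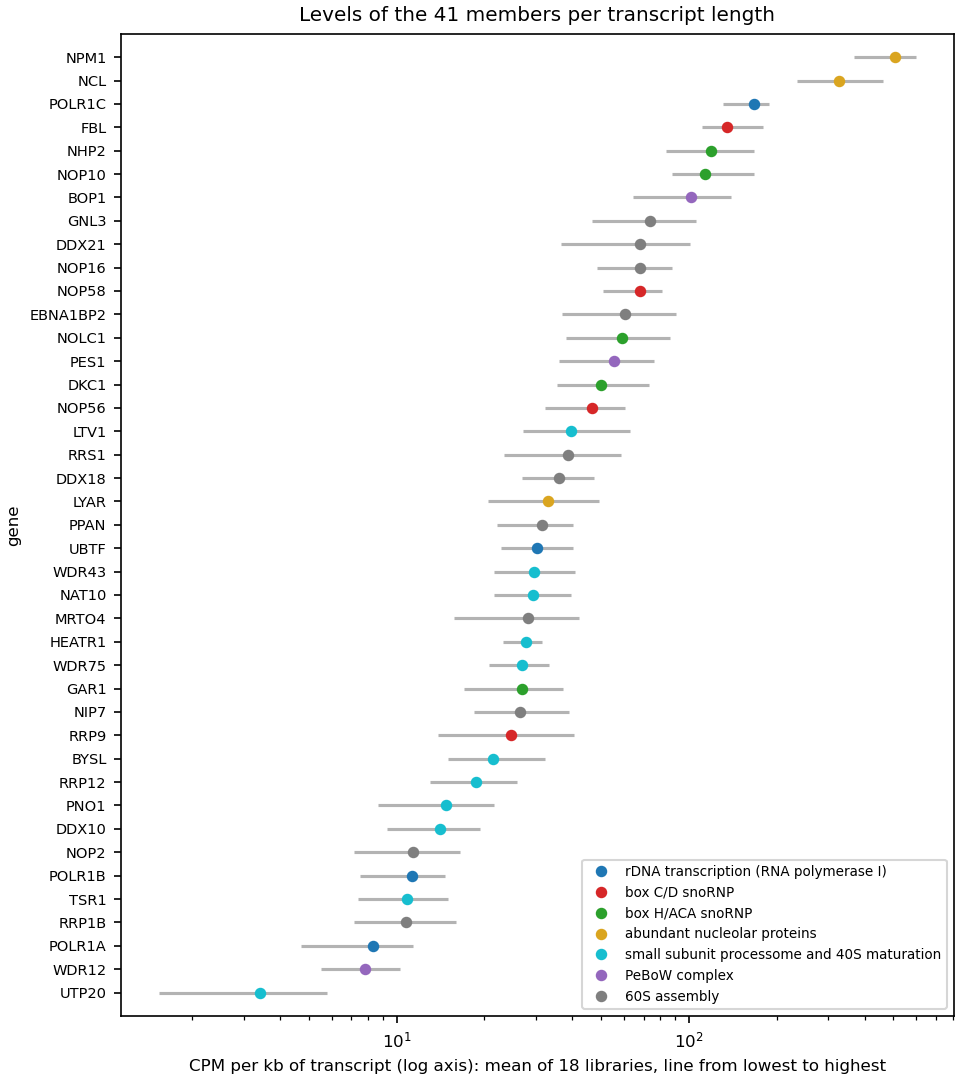
Level of each of the 41 genes in CPM per kb of transcript (log axis), with the point at the mean of 18 libraries, the line from the lowest to the highest library and the colour giving the gene's role. NPM1 (509) and NCL (327) stand at the top and UTP20 (3.42) at the bottom. The role named abundant nucleolar proteins holds NPM1, NCL and LYAR, of which LYAR averaged 33.1.

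Library totals were 18.2 to 51.5 M reads. PHF8 RNA followed the labels, with 1900 to 2096 CPM in PHF8, 5001 to 5781 in F279S, 45.5 to 54.0 in wt, 1098 to 1119 in ERDD, 1900 to 1912 in ERPHF8 and 1995 to 2305 CPM in ERAA. ESR1, the oestrogen receptor gene, stood at 124 to 126 CPM in ERDD, 229 to 230 in ERPHF8, 247 to 275 in ERAA and 0.20 to 1.35 CPM in the first experiment. All 9 myeloid markers checked were detected in every library, with CD14 (2.25 to 14.3 CPM) and MPO (2.98 to 8.88 CPM) lowest. In each line of the first experiment libraries 1 and 2 stood apart from libraries 3 and 4. The labels name no batch, the split was known from earlier results of these data, and comparisons are therefore given both over all libraries and within each pair. Libraries 1 and 2 had totals of 18.2 to 24.3 M reads and libraries 3 and 4 of 20.8 to 51.5 M. In wt, library 4 had 20.8 M reads, close to libraries 1 and 2, and stood with library 3 in member levels. The 9 myeloid markers summed to 878 to 902 CPM in PHF8 libraries 1 and 2, against 1086 to 1151 CPM in PHF8 libraries 3 and 4. They summed to 1439 to 1449 CPM in F279S libraries 1 and 2, against 1636 to 1642 CPM in 3 and 4, and to 1507 to 1586 CPM in wt libraries 1 and 2, against 1930 to 1992 CPM in 3 and 4. They summed to 1199 to 1213 CPM in ERDD, 970 to 981 in ERPHF8 and 1188 to 1191 CPM in ERAA. LYZ alone ran from 172 to 1043 CPM over all libraries, the widest range of the 9, so the sums do not show that the 9 moved together. The 3 fibroblast markers, mainly COL1A1 and COL1A2, summed to 24.3 and 31.9 CPM in 1 PHF8 and 1 F279S library of the first pair and to 4.85 CPM or less in every other library. The T cell (3), erythroid (3) and epithelial (3) markers summed to at most 0.41, 0.12 and 1.58 CPM. The part of these values in the results was not tested.

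The member RNAs together made up a varying share of each library. They summed to 7133, 6985, 5756 and 5787 CPM in PHF8 libraries 1 to 4, to 7742, 7814, 4721 and 4842 CPM in F279S, and to 7882, 8127, 4667 and 4773 CPM in wt. The sums of libraries 1 and 2 exceeded those of 3 and 4 in each line, and the gap was narrowest in PHF8. PHF8 libraries therefore lay below wt and F279S in the first pair and above both in the second. In the second experiment the sums were 6961 and 6904 CPM in ERDD, 6079 and 6034 in ERPHF8, and 4980 and 5105 CPM in ERAA, with no overlap. In these bulk samples, fewer cells with a high level and less RNA per cell cannot be told apart, and CPM, a share of the library, does not show a change in total RNA per cell.

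**Figure D2:**
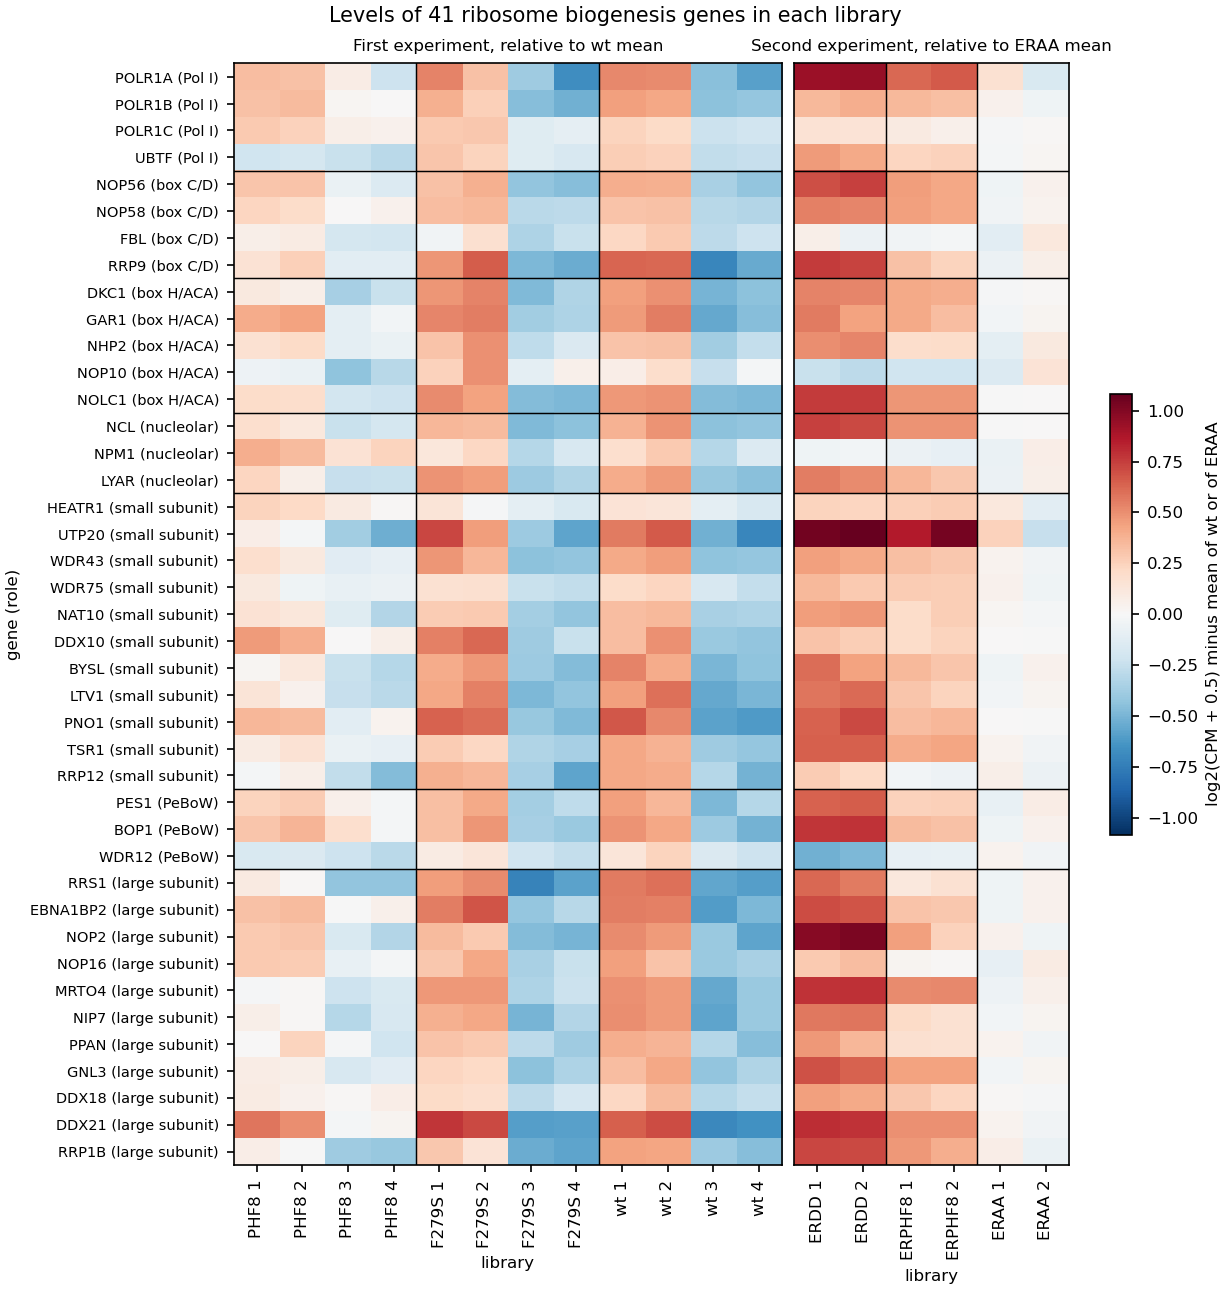
Level of each of the 41 genes in each library as log2(CPM + 0.5) minus the mean of wt (first experiment) or of ERAA (second experiment), by role. Red is above and blue below that mean, and in wt all 41 genes were above it in libraries 1 and 2 and 0 of 41 in libraries 3 and 4.

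Over all 4 libraries a group, no member passed the test between PHF8 and wt. The spread in this test holds the gap between the library pairs. The members' library medians had an SD of 0.38 log2 within groups, against 0.02 within pairs. A count of 0 here thus does not show that the members were unchanged, and the same holds for the comparisons with F279S below. Of 41 members 0 were called higher or lower in PHF8 (adjusted p below 0.05 over 13683 genes), where 21.0% of all genes were called, and 0 members reached an unadjusted p below 0.05. Their log2 fold changes ran from -0.24 to 0.28 with a median of 0.02, against 0.01 for all genes. Leaving out 1 library moved this median between -0.13 and 0.15, and it was below 0 without PHF8 library 1 or 2 or wt library 3 or 4. The smallest p belonged to NPM1 and WDR12. NPM1 (hg38 chromosome 5, 171387116 to 171411137) had 1052, 1015, 891 and 948 CPM in PHF8, against 909, 972, 645 and 721 CPM in wt. PHF8 was above wt within libraries 1 and 2 and within 3 and 4, but the groups overlapped over all libraries, and the log2 fold change was 0.28 ± 0.15 (SE, adjusted p = 0.21). WDR12 (chromosome 2, 202874782 to 203014798, overlapping CARF) had 62.7, 63.1, 60.2 and 57.7 CPM in PHF8, against 77.4, 83.5, 63.3 and 60.5 CPM in wt, a log2 difference of -0.21 ± 0.12 (SE, adjusted p = 0.24).

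Within the pairs the same comparison called most members, in opposite directions. In libraries 1 and 2 alone, 30 members were lower in PHF8 than in wt and 1 higher, where 24.4% of all genes were lower and 27.6% higher. The members' median log2 fold change was -0.22 in that pair. In libraries 3 and 4 alone, 28 members were higher and 0 lower, where 23.7% of all genes were higher and 18.3% lower, and the median was 0.26. Of the 18 members called in both pairs, 17 were lower in the first and higher in the second, and NPM1 was higher in both. By library values alone, 37 members had both PHF8 libraries below both wt libraries in the first pair (36.9% of all genes), 35 had both above in the second (38.4%), and 31 did both (9.44%). With the library pair as a term, 3 members were called higher and 3 lower, where 40.9% of all genes were called, and with the replicate number as a block also 3 and 3 (41.4%). With each pair averaged 0 were called, where 13.0% of all genes were.

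By role, and with no test between roles, the calls within the pairs were these. Of the RNA polymerase I genes, POLR1A (-0.19 ± 0.06) and UBTF fell in PHF8 in libraries 1 and 2, and the subunits POLR1A (0.45 ± 0.13), POLR1B (0.44 ± 0.05) and POLR1C (0.27 ± 0.04) rose in libraries 3 and 4. Box C/D members FBL and RRP9 fell in the first pair, while NOP56 (0.28 ± 0.05), NOP58 (0.33 ± 0.05) and RRP9 rose in the second. Of the box H/ACA genes, DKC1 (-0.39 ± 0.05), NOP10 (-0.19 ± 0.07) and NOLC1 fell in the first and GAR1 (0.44 ± 0.07), NHP2 (0.23 ± 0.06) and NOLC1 rose in the second. NCL stood at -0.29 ± 0.06 and 0.22 ± 0.05 and LYAR, a nucleolar regulator of growth, at -0.28 ± 0.06 and 0.19 ± 0.05, all called. Of the small subunit factors 9 of 11 fell in the first pair, most of all UTP20 (-0.59 ± 0.08), and 7 of 11 rose in the second, most of all PNO1 (0.56 ± 0.07). PES1 fell and rose (-0.14 ± 0.05 and 0.42 ± 0.07), and BOP1 rose in the second pair (0.53 ± 0.08). Of the large subunit factors 10 of 11 fell in the first pair, most of all RRS1 (-0.53 ± 0.06), and 7 of 11 rose in the second, most of all DDX21. All ± values of fold changes are SE.

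**Figure D3:**
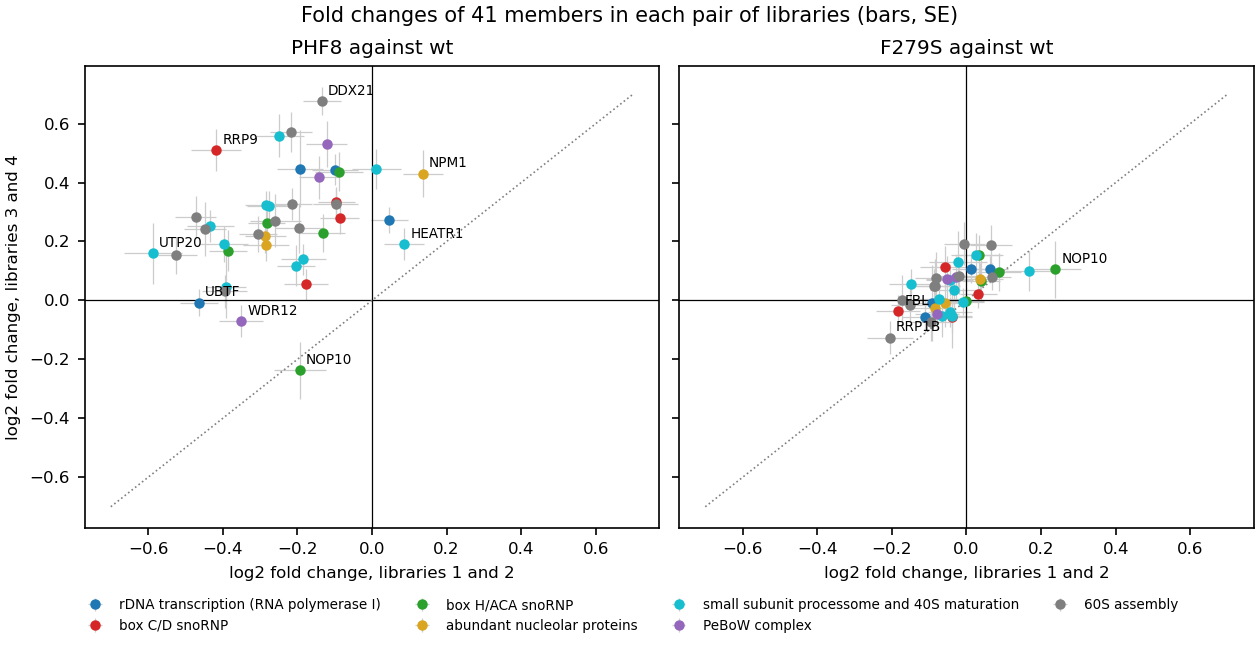
Log2 fold change of each of the 41 genes in libraries 1 and 2 (x axis) and in libraries 3 and 4 (y axis), for PHF8 against wt on the left and F279S against wt on the right, with bars of 1 SE, colours by role and a dotted line where both pairs are equal. On the left, 34 of the 41 points lie left of 0 and above 0.

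The difference between the pairs was itself tested, as the log2 fold change in libraries 1 and 2 minus that in libraries 3 and 4. It was below 0 and called for 38 of 41 members, where 15.8% of all genes were called below 0, and above 0 for 0 members (14.3% of all genes). All 41 members were higher in wt libraries 1 and 2 than in 3 and 4, so a narrower gap in PHF8 gives them a difference below 0. Over all genes too, fewer had a called gap between the pairs in PHF8 (3775 of 13954) than in F279S (8017) or wt (8396). The median difference was -0.53 over the members and 0.02 over all genes. The members not called were FBL (-0.23 ± 0.09), HEATR1 (-0.11 ± 0.08) and NOP10 (0.04 ± 0.13). By role the called members were all 4 of RNA polymerase I transcription, 3 of 4 of box C/D, 4 of 5 of box H/ACA, the 3 nucleolar proteins NPM1, NCL and LYAR, 10 of 11 of the small subunit, all 3 of PeBoW and all 11 of the large subunit.

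DDX21, a nucleolar RNA helicase (chromosome 10, 68956128 to 68985073), showed the pattern with the smallest p. It had 415 and 394 CPM in PHF8 libraries 1 and 2, against 435 and 453 CPM in wt libraries 1 and 2. In libraries 3 and 4 it had 273 and 284 CPM in PHF8, against 172 and 176 CPM in wt. The groups did not overlap in either pair and their order was turned round between the pairs, with log2 fold changes of -0.13 ± 0.05 (SE, adjusted p = 0.031) and 0.68 ± 0.05 (SE, adjusted p = 0.00018). The difference between pairs was -0.81 ± 0.07 (SE, adjusted p = 2.0e-05).

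RRP9, the protein specific to the U3 snoRNP of the small subunit processome (chromosome 3, 51933430 to 51941941), had the largest difference, at -0.93 ± 0.10 (SE, adjusted p = 0.00011). It stood at 44.9 and 48.3 CPM in PHF8 libraries 1 and 2, against 62.6 and 62.1 in wt, and at 37.2 and 37.2 CPM in PHF8 libraries 3 and 4, against 24.6 and 27.5 in wt. Its levels in PHF8 thus lay between the pair values of wt. NOLC1, a nucleolar chaperone of snoRNPs (chromosome 10, 102152176 to 102163871), had 274, 271, 207 and 203 CPM in PHF8 libraries 1 to 4, against 330.3, 333, 172 and 170.1 CPM in wt. Its difference between pairs was -0.55 ± 0.06 (SE, adjusted p = 0.00013).

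Among large subunit factors, EBNA1BP2 (chromosome 1, 43164175 to 43270936, overlapping CFAP57 and TMEM125) had 92.5, 94.4, 73.9 and 77.0 CPM in PHF8, against 109, 108, 48.6 and 52.7 CPM in wt, and a difference of -0.79 ± 0.09 (SE, adjusted p = 0.00011). MRTO4, which prepares the site of the ribosomal stalk (chromosome 1, 19251539 to 19260128, overlapping EMC1), had 68.8, 70.0, 59.2 and 61.8 CPM in PHF8, against 97.5, 95.4, 47.0 and 52.4 CPM in wt, and a difference of -0.76 ± 0.09 (SE, adjusted p = 0.00012). For both genes PHF8 lay below wt in libraries 1 and 2 and above it in 3 and 4, without overlap. TSR1, a small subunit assembly factor (chromosome 17, 2322503 to 2337507, overlapping SRR and SGSM2), had 61.8, 64.9, 55.1 and 54.7 CPM in PHF8, against 77.9, 75.7, 44.4 and 43.4 CPM in wt, a difference of -0.60 ± 0.07 (SE, adjusted p = 0.00018).

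A few members departed from the common pattern. UBTF, the factor that binds rDNA and recruits RNA polymerase I (chromosome 17, 44205033 to 44221626), had 140.0, 143, 138 and 133 CPM in PHF8, against 196, 194, 135 and 137 CPM in wt. It fell in PHF8 in the first pair (-0.46 ± 0.05, adjusted p = 1.5e-07) and did not pass in the second (-0.01 ± 0.05, adjusted p = 0.91). WDR12 likewise fell in the first pair (-0.35 ± 0.06, adjusted p = 3.8e-05) and stood at -0.07 ± 0.05 (SE, adjusted p = 0.33) in the second. NPM1 rose in both pairs, by 0.14 ± 0.05 (SE, adjusted p = 0.040) and 0.43 ± 0.08 (SE, adjusted p = 0.0061), and its difference between pairs, -0.29 ± 0.10 (SE, adjusted p = 0.042), was called. HEATR1, a small subunit processome protein overlapping LGALS8, varied least over the 12 libraries, with 1.33 times between the lowest and highest, against 2.77 times for DDX21 and 2.75 for UTP20. UBTF and HEATR1 were picked out here after their values were seen.

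**Figure D4:**
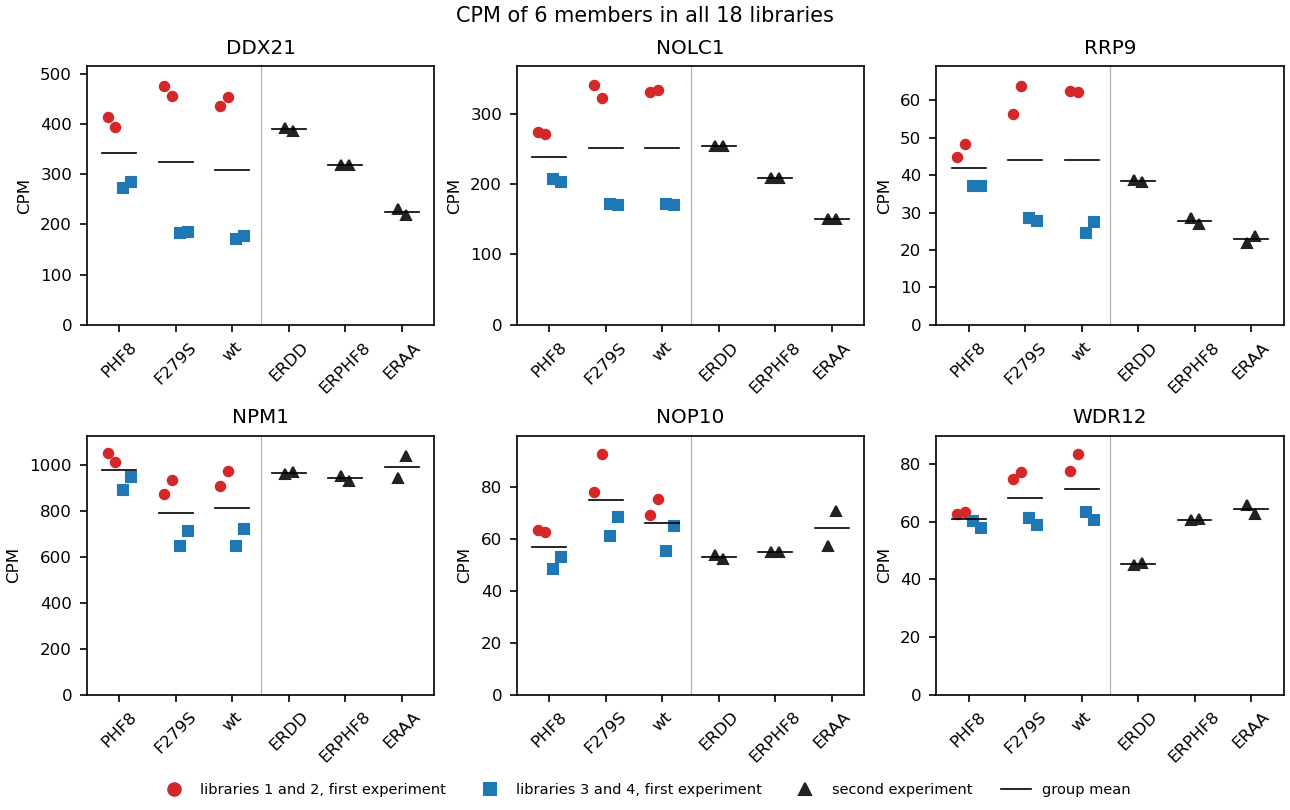
CPM of 6 members in each of the 18 libraries, with libraries 1 and 2 of the first experiment as circles, libraries 3 and 4 as squares, the second experiment as triangles and a line at each group mean. For DDX21, NOLC1 and RRP9 the circles and squares are closer together in PHF8 than in F279S and wt, and WDR12 is lowest in ERDD.

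No member passed the test between F279S and wt. Of 41 members 0 were called, where 0.0146% of all genes were, and 0 reached an unadjusted p below 0.05. The median log2 fold change was -0.00 (range -0.17 to 0.17), against -0.01 for all genes. Leaving out 1 library moved this median between -0.14 and 0.15, and it was above 0 without F279S library 3 or 4 or wt library 1 or 2. The smallest p belonged to NOP10, a core protein of box H/ACA snoRNPs (chromosome 15, 34341713 to 34343177), and to fibrillarin, FBL, the ribose methyltransferase of box C/D snoRNPs (chromosome 19, 39834458 to 39846414). NOP10 had 78.1, 92.7, 60.9 and 68.4 CPM in F279S, against 69.1, 75.2, 55.4 and 64.8 CPM in wt, a log2 difference of 0.17 ± 0.14 (SE, adjusted p = 0.98). FBL had 167, 192, 136 and 144 CPM in F279S, against 199, 207, 140.4 and 147 CPM in wt, a difference of -0.11 ± 0.15 (SE, adjusted p = 1.00). Both groups overlapped in both genes.

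Within pairs, libraries 1 and 2 called 1 member higher in F279S, NOP10 (0.24 ± 0.07, adjusted p = 0.026), where 7.48% of all genes were higher. They called 3 lower, where 6.73% of all genes were: FBL (-0.18 ± 0.06, adjusted p = 0.042), RRP1B, a nucleolar large subunit factor (-0.21 ± 0.06, adjusted p = 0.028), and GNL3, nucleostemin (-0.15 ± 0.05, adjusted p = 0.0496). Libraries 3 and 4 called 0 (0.0865% of all genes). The difference between the pairs was called for 0 members, where 0.867% of all genes were called, with a median of -0.08 and 2 members at an unadjusted p below 0.05. These were TSR1 (-0.21 ± 0.07, adjusted p = 0.36) and MRTO4 (-0.20 ± 0.09, adjusted p = 0.51). DDX18 (-0.14 ± 0.08), GNL3 (-0.14 ± 0.08), NOP2 (-0.17 ± 0.10) and FBL (-0.15 ± 0.09) followed and did not pass.

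Between PHF8 and F279S, a comparison that shares the PHF8 libraries with the one against wt, no member passed over all libraries either. Over all libraries 0 of 41 members were called, where 20.1% of all genes were, with a median of 0.03 (range -0.39 to 0.32) and 2 members at an unadjusted p below 0.05. The median was -0.10 to 0.15 with 1 library left out, and below 0 without PHF8 library 1 or 2 or F279S library 3 or 4. The 2 members were NOP10, with 63.4, 62.6, 48.5 and 53.2 CPM in PHF8, against 78.1, 92.7, 60.9 and 68.4 CPM in F279S, and NPM1, with 1052, 1015, 891 and 948 CPM in PHF8, against 873, 934, 646 and 710.1 CPM in F279S. NOP10 was lower in PHF8 in both pairs and NPM1 higher, at -0.39 ± 0.14 (SE, adjusted p = 0.070) and 0.32 ± 0.15 (SE, adjusted p = 0.16). Without F279S library 3 the NOP10 difference, then -0.48, was called.

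In libraries 1 and 2 alone 26 members were lower in PHF8 than in F279S and 2 higher, where 24.7% of all genes were lower and 29.8% higher. In libraries 3 and 4 alone 25 were higher and 1 lower, where 20.3% were higher and 14.8% lower. Of the 15 members called in both pairs, 12 were lower in the first and higher in the second, HEATR1 and NPM1 were higher in both, and NOP10 was lower in both. Without overlap, PHF8 lay below F279S in the first pair for 33 members (34.7% of all genes), above it in the second for 35 (38.8%) and both for 27 (7.52%). Under the replicate block 2 members were called higher and 2 lower (41.1% of all genes), and with the library pair as a term 3 and 2 (40.7%). With each pair averaged NOP10 alone was called, where 11.6% of all genes were.

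All 41 members were higher in F279S libraries 1 and 2 than in 3 and 4, so here too a narrower gap in PHF8 gives a difference below 0. The difference between pairs was called below 0 for 36 members and above 0 for 0, where 11.5% of all genes were below 0 and 9.9% above, with a median of -0.44. It was -0.80 ± 0.07 (SE, adjusted p = 3.1e-05) for DDX21, which had 415, 394, 273 and 284 CPM in PHF8, against 475, 456, 183 and 185 CPM in F279S. NOLC1 had 340.1, 322, 171 and 169.7 CPM in F279S and a difference of -0.55 ± 0.06 (SE, adjusted p = 0.00019). WDR43, a small subunit processome protein (chromosome 2, 28894643 to 28948222), had 118, 111, 95.2 and 97.6 CPM in PHF8, against 145, 133, 76.1 and 77.1 CPM in F279S. It was below F279S in the first pair and above it in the second without overlap, a difference of -0.61 ± 0.08 (SE, adjusted p = 0.00033). RRS1, which recruits the 5S ribonucleoprotein to the large subunit (overlapping ADHFE1), differed by -0.66 ± 0.08 (SE, adjusted p = 0.00039), EBNA1BP2 by -0.67 ± 0.09 and RRP9 by -0.76 ± 0.10.

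The gap between the pairs inside each line was narrower in PHF8 than in F279S and wt. The gap in PHF8 minus that in wt or F279S is the pair difference given above, so these values restate it by line. In PHF8 35 members were higher in libraries 1 and 2 than in libraries 3 and 4 and 0 lower, where 12.8% of all genes were higher and 14.2% lower, with a median log2 difference of 0.32 (range 0.03 to 0.54). Leaving out PHF8 library 2 lowered that count to 22. The members not called in PHF8 were UBTF, NPM1, WDR75, WDR12, PPAN and DDX18. In F279S all 41 were higher (26.5% of all genes), with a median of 0.79 (range 0.20 to 1.34). In wt all 41 were higher (27.6% of all genes), with a median of 0.86 (range 0.27 to 1.35). Without overlap, libraries 1 and 2 lay above 3 and 4 for 40 members in PHF8 (33.5% of all genes), where the exception was DDX18, an RNA helicase, for 41 in F279S (35.6%) and for 41 in wt (36.1%).

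DDX21 had the smallest p in each line. Its log2 difference between libraries 1 and 2 and libraries 3 and 4 was 0.54 ± 0.05 (SE, adjusted p = 7.8e-06) in PHF8, 1.34 ± 0.05 (SE, adjusted p = 1.1e-09) in F279S and 1.35 ± 0.05 (SE, adjusted p = 1.3e-09) in wt. NOLC1 differed by 0.41 ± 0.04 in PHF8, 0.95 ± 0.04 in F279S and 0.95 ± 0.04 in wt. RRS1 had 70.4 and 66.2 CPM in PHF8 libraries 1 and 2, against 48.7 and 48.9 CPM in PHF8 3 and 4. It had 90.2 and 94.2 CPM in F279S libraries 1 and 2, against 39.6 and 43.8 CPM in F279S 3 and 4, and 97.2 and 99.7 CPM in wt libraries 1 and 2, against 44.5 and 43.2 CPM in wt 3 and 4. Its differences were 0.48 ± 0.06 in PHF8, 1.14 ± 0.06 in F279S and 1.16 ± 0.06 in wt. All 3 genes were thus higher in libraries 1 and 2 of every line, by less in PHF8. NOP56, a core box C/D snoRNP protein (chromosome 20, 2652145 to 2658393), had 131 and 131 CPM in PHF8 libraries 1 and 2, against 101 and 95.9 CPM in PHF8 3 and 4 (0.41 ± 0.05, adjusted p = 9.9e-05). WDR43 differed by 0.85 ± 0.05 in F279S and EBNA1BP2 by 1.10 ± 0.06 in wt. The smallest differences were those of DDX18 (0.03 ± 0.05) and UBTF (0.06 ± 0.04) in PHF8, HEATR1 (0.20 ± 0.06) in F279S and NOP10 (0.27 ± 0.09) in wt.

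By role the median difference in PHF8 was 0.38 for box H/ACA, 0.36 for NPM1, NCL and LYAR, 0.36 for small subunit factors, 0.31 for large subunit factors, 0.30 for box C/D, 0.27 for RNA polymerase I transcription and 0.24 for PeBoW. In F279S these medians lay between 0.62 for RNA polymerase I transcription and 0.89 for box H/ACA. In wt they lay between 0.69 for RNA polymerase I transcription and 0.95 for large subunit factors. Each role had its smallest median in PHF8.

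In the second experiment most members were highest in ERDD, intermediate in ERPHF8 and lowest in ERAA. Between ERDD and ERAA 37 members rose and 2 fell, where 34.8% of all 13831 genes tested rose and 33.3% fell. The median log2 fold change was 0.53 over the members and -0.00 over all genes. The members that did not pass were FBL and NPM1. Without overlap, ERDD lay above ERAA for 37 members (42.1% of all genes), and the order ERDD, ERPHF8, ERAA held for 34 (18.9%). ERDD held less PHF8 and ESR1 RNA than ERAA, and the part of this in the results was not tested.

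All 4 RNA polymerase I genes rose in ERDD. POLR1A, its largest subunit (chromosome 2, 86020216 to 86106155), had 143 and 145 CPM in ERDD, against 84.6 and 66.9 CPM in ERAA, a log2 fold change of 0.94 ± 0.09 (SE, adjusted p = 5.4e-05). The ERAA libraries differed more from each other than those of ERDD did, yet lay below both. UBTF rose by 0.44 ± 0.04, POLR1B, the second largest subunit, by 0.37 ± 0.05 and POLR1C, which RNA polymerase III shares, by 0.15 ± 0.04. POLR1C overlaps 3 other genes.

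Of the box C/D proteins 3 of 4 rose, RRP9 by 0.75 ± 0.06, NOP56 by 0.72 ± 0.05 and NOP58 by 0.54 ± 0.04. FBL, which binds to the same snoRNPs, had 145 and 133 CPM in ERDD, against 129 and 151 CPM in ERAA. Its groups overlapped, and its difference was -0.00 ± 0.08 (SE, adjusted p = 0.99). Of the 5 box H/ACA genes 4 rose. NOLC1 had 254 and 254 CPM in ERDD, against 149.6 and 150.4 CPM in ERAA, and a log2 fold change of 0.76 ± 0.04 (SE, adjusted p = 1.4e-06), the smallest p of all members. Dyskerin, DKC1, the pseudouridine synthase, rose by 0.53 ± 0.04, NHP2 by 0.52 ± 0.07 and GAR1 by 0.50 ± 0.06.

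NOP10, the smallest core protein of the same snoRNPs, fell in ERDD. It had 53.8 and 52.3 CPM in ERDD, against 57.4 and 70.8 CPM in ERAA, a log2 difference of -0.26 ± 0.09 (SE, adjusted p = 0.026). The call was lost without ERDD library 1 (adjusted p = 0.084) or 2 (adjusted p = 0.13), and without ERAA library 2 the difference was -0.11. The ERAA libraries of NOP10 lay farther apart than the nearer of them lay from ERDD.

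Of the nucleolar proteins NPM1, NCL and LYAR, NCL (chromosome 2, 231453531 to 231483641) had 1588 and 1566 CPM in ERDD, against 948 and 955 CPM in ERAA, and rose by 0.73 ± 0.04 (SE, adjusted p = 2.9e-06). LYAR rose by 0.53 ± 0.06. NPM1 had 959.9 and 969.8 CPM in ERDD, against 945 and 1040.3 CPM in ERAA. Its groups overlapped, and its difference was -0.04 ± 0.05 (SE, adjusted p = 0.53).

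All 11 small subunit factors rose in ERDD, by 0.24 to 1.06 with a median of 0.46. UTP20 (chromosome 12, 101280109 to 101386616) had 34.9 and 35.8 CPM in ERDD, against 19.9 and 13.9 CPM in ERAA, the largest fold change of all members (1.06 ± 0.14, adjusted p = 0.00028). PNO1 (0.67 ± 0.05), TSR1 (0.65 ± 0.05) and LTV1 (0.60 ± 0.05), which act late in small subunit assembly, followed, and each of them overlaps another gene. The lowest rises were those of HEATR1 (0.24 ± 0.07) and RRP12 (0.24 ± 0.05). NAT10, which acetylates rRNA, rose by 0.46 ± 0.04.

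The PeBoW subunits did not move together. BOP1, which overlaps SCX, had 262 and 265 CPM in ERDD, against 149 and 159 CPM in ERAA, and rose by 0.78 ± 0.04 (SE, adjusted p = 2.9e-06). PES1, pescadillo (chromosome 22, 30576625 to 30607083, overlapping TCN2), rose by 0.65 ± 0.06. WDR12, the other subunit, had 44.8 and 45.6 CPM in ERDD, against 65.8 and 62.7 CPM in ERAA, and fell, with a log2 fold change of -0.50 ± 0.05 (SE, adjusted p = 3.6e-05). Its groups did not overlap, and ERDD held its lowest levels of all 18 libraries. The overlapping gene CARF averaged 9.35 CPM.

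All 11 large subunit factors rose, by 0.31 to 1.00 with a median of 0.66. DDX21 had 392 and 387 CPM in ERDD, against 230.1 and 219 CPM in ERAA (0.79 ± 0.04, adjusted p = 1.9e-06), and NOP2, an rRNA cytosine methyltransferase (chromosome 12, 6556863 to 6568691), 44.9 and 45.9 CPM in ERDD, against 23.2 and 21.7 CPM in ERAA (1.00 ± 0.07, adjusted p = 1.2e-05). Neither gene overlapped between the groups. MRTO4 (0.79 ± 0.05), RRP1B (0.72 ± 0.06), EBNA1BP2 (0.69 ± 0.05) and GNL3 (0.66 ± 0.04) rose by similar amounts, and NOP16 (0.31 ± 0.06) by the least.

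**Figure D5:**
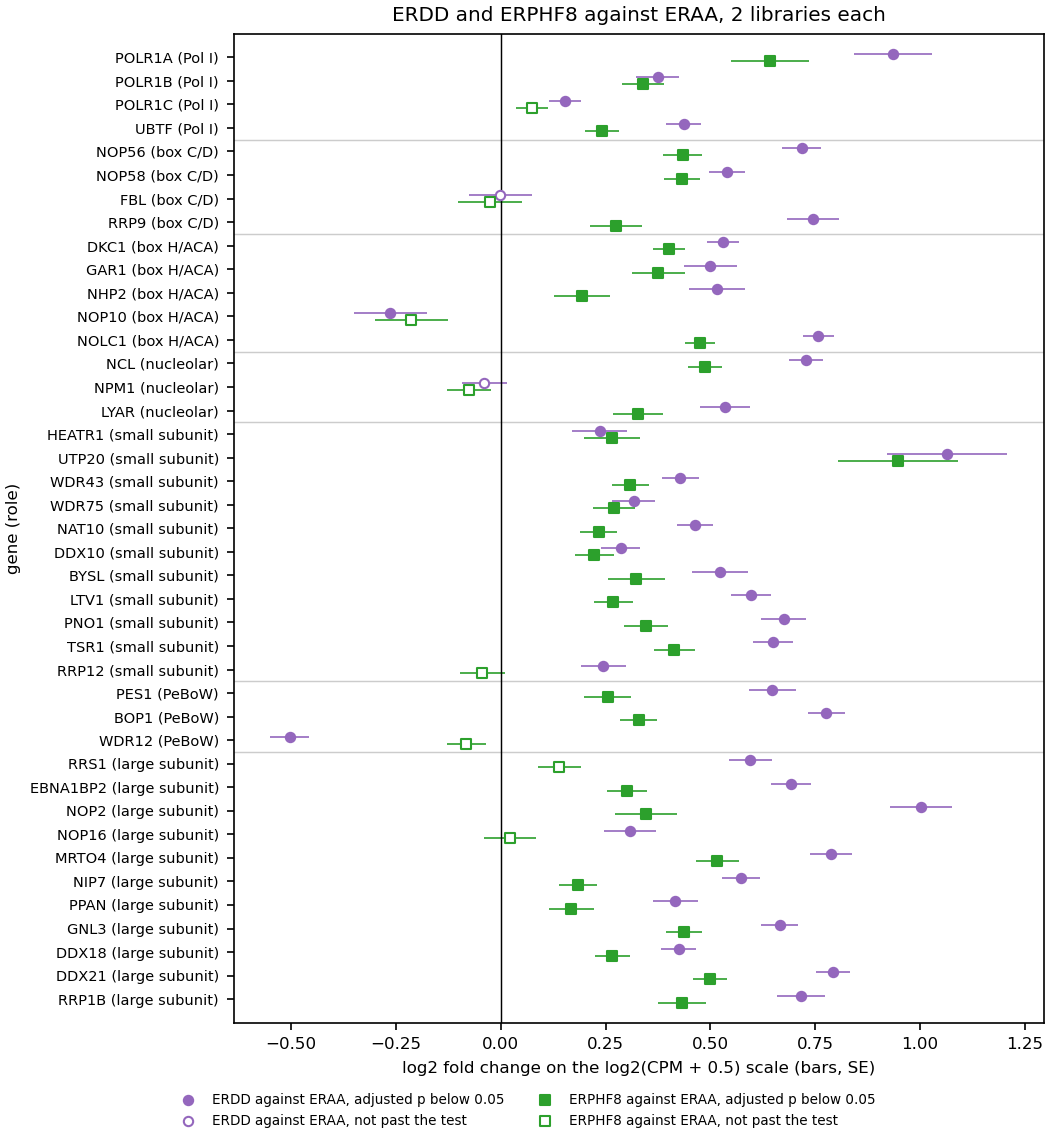
Log2 fold change of each of the 41 genes, by role, in ERDD against ERAA (circles) and ERPHF8 against ERAA (squares), with bars of 1 SE and open symbols where the adjusted p was not below 0.05. Circles lie right of 0 and filled for 37 genes, squares for 33, and WDR12 and NOP10 are the filled circles left of 0.

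ERPHF8 stood between the other lines. Because its labels name no 4-OHT, its differences from ERDD and ERAA cannot be told apart from that treatment. Against ERAA, whose libraries also served the comparison above, 33 members rose and 0 fell, where 29.7% of all genes rose and 24.1% fell. The median was 0.30 over the members and 0.04 over all genes. NOLC1 had 209 and 209 CPM in ERPHF8, against 149.6 and 150.4 CPM in ERAA (0.48 ± 0.04, adjusted p = 4.8e-05). DDX21 had 317 and 318 CPM in ERPHF8, against 230.1 and 219 CPM in ERAA (0.50 ± 0.04, adjusted p = 5.8e-05). Neither gene overlapped. NCL had 1335 and 1332 CPM in ERPHF8 and rose by 0.49 ± 0.04 (SE, adjusted p = 6.5e-05), and DKC1 (chromosome X, 154762742 to 154777689) had 129 and 127 CPM in ERPHF8, against 96.0 and 97.3 CPM in ERAA (0.40 ± 0.04, adjusted p = 0.00012). The members that did not pass were POLR1C (0.07 ± 0.04), FBL (-0.03 ± 0.08), NOP10 (-0.21 ± 0.09), NPM1 (-0.08 ± 0.05), RRP12 (-0.04 ± 0.05), WDR12 (-0.08 ± 0.05), RRS1 (0.14 ± 0.05) and NOP16 (0.02 ± 0.06).

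Between ERDD and ERPHF8 28 members were higher in ERDD and 1, WDR12, lower, where 24.8% of all genes were higher and 28.0% lower. The median was 0.23 over the members and -0.02 over all genes. All 11 large subunit factors were higher (median 0.29), against 6 of 11 small subunit factors, 2 of 4 of RNA polymerase I, 2 of 4 of box C/D and 3 of 5 of box H/ACA. BOP1 had 262 and 265 CPM in ERDD, against 195 and 191 CPM in ERPHF8 (0.45 ± 0.04, adjusted p = 0.00017). RRS1 had 84.8 and 81.3 CPM in ERDD, against 59.4 and 61.3 CPM in ERPHF8 (0.46 ± 0.05, adjusted p = 0.00033). NOP2 had 30.7 and 26.7 CPM in ERPHF8 and was higher in ERDD by 0.66 ± 0.07 (SE, adjusted p = 0.00034). In each of these genes both ERDD libraries exceeded both ERPHF8 libraries. NIP7, a large subunit assembly factor (chromosome 16, 69339430 to 69343111, overlapping COG8), was higher by 0.39 ± 0.05 (SE, adjusted p = 0.00040). WDR12 had 44.8 and 45.6 CPM in ERDD, against 60.5 and 60.8 CPM in ERPHF8, a log2 difference of -0.42 ± 0.05 (SE, adjusted p = 0.00030).

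Other genes of ribosome biogenesis, listed by function, numbered 124 in the tables, of which 123 were tested. Between PHF8 and wt 2 were higher and 2 lower, where 21.0% of all genes were called. TAF1B, a subunit of the rDNA promoter selectivity factor, was at 0.27 ± 0.06 (SE, adjusted p = 0.0087) and RSL24D1, a large subunit assembly factor, at 0.33 ± 0.08 (SE, adjusted p = 0.015). ZNRD1, a small subunit of RNA polymerase I, was at -0.49 ± 0.11 (SE, adjusted p = 0.0082) and NVL, an ATPase of large subunit assembly, at -0.34 ± 0.10 (SE, adjusted p = 0.036). Between PHF8 and F279S TAF1B was again higher (0.34 ± 0.06) and ZNRD1 lower (-0.50 ± 0.11), with no other gene of the list called (20.1% of all genes). Between F279S and wt 0 were called (0.0146% of all genes) and 0 reached an unadjusted p below 0.05. The difference between the pairs of libraries in PHF8 against wt was called below 0 for 76, where 15.8% of all genes were. Among them were NOP14, a small subunit factor (-0.59 ± 0.06, adjusted p = 8.3e-05) and NOC3L, a large subunit factor (-0.73 ± 0.08, adjusted p = 0.00010). The difference was called above 0 for GLTSCR2 (0.40 ± 0.08), where 14.3% of all genes were above. In PHF8 against F279S it was called below 0 for 66 (11.5% of all genes) and above for 2 (9.9%). In libraries 1 and 2 against 3 and 4 higher and lower genes came to 73 and 0 in PHF8, 108 and 2 in F279S and 111 and 3 in wt. Of all genes, 12.8% were higher and 14.2% lower in PHF8. In F279S 26.5% of all genes were higher and 4316 of 13954 lower, and in wt 27.6% and 4543 of 13954.

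In ERDD against ERAA 88 of these other genes rose and 10 fell, where 34.8% of all genes rose and 33.3% fell. TCOF1, treacle, an organiser of rDNA transcription, rose by 1.09 ± 0.05 (SE, adjusted p = 8.5e-07) and NOL6, a small subunit factor, by 0.94 ± 0.04 (SE, adjusted p = 1.2e-06). RSL24D1 (-1.25 ± 0.05, adjusted p = 8.7e-07) and GLTSCR2, a large subunit factor (-0.80 ± 0.05, adjusted p = 5.3e-06), fell. In ERPHF8 against ERAA 61 rose (29.7% of all genes) and 11 fell (24.1%), and RSL24D1 stood at -0.64 ± 0.05. In ERDD against ERPHF8 65 were higher (24.8% of all genes) and 9 lower (28.0%), with RSL24D1 at -0.61 ± 0.05. The medians in ERDD against ERAA were 0.53 for the 41 members and 0.30 for these genes.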

How the data were processed

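Poly(A) RNA of 18 THP-1 libraries was sequenced, and the title and genotype of a library gave its group, with 0 unassigned. The authors deposited RPKM values for 19784 genes per library, on hg38. The tools named in the submitters' processing notes are DESeq2, SAMtools 1.9 and STAR 2.7.0c. The counting tool is not given in the sources used here. From the deposited values, RPKM times the span in kb was a whole multiple of 1 read in 100% of values (within 0.001 reads), so library totals were recovered (18.2 to 51.5 M reads). The length used in RPKM was thus the whole span, introns included. Reads summed over genes came to 100.1 to 104.6% of the library total, so some reads counted in more than 1 gene. Whether intron reads were counted, and whether strand was regarded, was not tested. The authors' RPKM was multiplied by span to give CPM, which keeps the deposited scaling.

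The tests had been planned for such values: limma 3.58.1 (R 4.3.3) on log2(CPM + 0.5) with a trended prior variance and Benjamini-Hochberg adjustment over all genes that reached 1 CPM in 4 or more libraries (groups of the first experiment) or in 2 or more (other fits). Fold changes on this scale understate those of low genes. The first experiment's 12 libraries shared a fit, as did the 6 of the second, and the library pairs were fitted as means of group by pair. The test was checked on simulated data before use. Those data were drawn without the split between the library pairs, so the check does not cover it. Members, gene lists and the library pairs were chosen with earlier results of these data known. Named were, per comparison, the up to 4 called members with the smallest p in each direction, the 2 smallest p where 0 or 1 was called, the 6 smallest p of each pair difference, the extremes of level per transcript length, and up to 2 other pathway genes per direction. Other members given by role were chosen after their values were seen. Of the marker lists checked, 1 is not reported here. Transcript lengths came from GENCODE v29, which matched the deposited coordinates of 39 members. The longest transcript with the gene's best APPRIS principal label was used. Same-numbered libraries of the first experiment deviated together from their group means (r 0.48 to 0.91 in all pairs), so by the rule set the numbers pair the libraries. These values carry the split between the library pairs, and differently numbered libraries of the same pair had r of 0.23 to 0.82. Around the means of group by pair, same-numbered libraries had r of -0.07 to -0.02 in libraries 1 and 2 and of 0.55 to 0.64 in libraries 3 and 4. In the second experiment r was -0.34 to 0.10 and the numbers did not pair. Alternatives were other pseudocounts (0.1 and 1), no filter, median-of-ratios scaling, limma's voom on recovered reads, genes that overlap no other gene, each library left out, the replicate block, the pair as a term, each pair alone, and pairs averaged.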

Additional observations from a re-analysis of the deposited data

Results flagged for a closer look

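The fold change of PHF8 differed between libraries 1 and 2 and libraries 3 and 4 by a test of the difference itself, against wt in 38 of 41 members and against F279S in 36. Against wt the difference (log2 fold change in libraries 1 and 2 minus that in 3 and 4) was -0.81 ± 0.07 for DDX21, -0.93 ± 0.10 for RRP9, -0.79 ± 0.09 for EBNA1BP2, -0.76 ± 0.09 for MRTO4, -0.55 ± 0.06 for NOLC1 and -0.60 ± 0.07 for TSR1 (± SE). Against F279S it was -0.80 ± 0.07 for DDX21, -0.55 ± 0.06 for NOLC1, -0.61 ± 0.08 for WDR43, -0.66 ± 0.08 for RRS1, -0.67 ± 0.09 for EBNA1BP2 and -0.76 ± 0.10 for RRP9 (± SE). Both sets of values share the PHF8 libraries. The pairs are not a batch in the labels, and what separates them was not tested. A check for single libraries far from their group says nothing here, because each group of 4 falls into 2 pairs.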

How the results depend on the processing

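Under the alternatives, 200 counts of called members stayed within 1.5 times the count reported and 20 did not, and 0 of the single members named changed direction. The members' median fold changes over all libraries of the first experiment, all near 0, did change sign. With 1 library left out they ran from -0.13 to 0.15 in PHF8 against wt, from -0.14 to 0.15 in F279S against wt and from -0.10 to 0.15 in PHF8 against F279S. They were also of opposite sign in libraries 1 and 2 and in libraries 3 and 4, at -0.22 and 0.26, -0.04 and 0.05, and -0.19 and 0.24. In PHF8 against wt, where 0 members were called over all libraries, 6 were called with the replicate block, 6 with the library pair as a term, 31 in libraries 1 and 2 alone, 28 in libraries 3 and 4 alone and 0 with each pair averaged. In PHF8 against F279S these counts were 4, 5, 28, 26 and 1, and in F279S against wt 4 were called in libraries 1 and 2 alone. Genes that overlap no other gene leave 25 members, of which 23 were called in ERDD against ERAA, 21 in ERPHF8 against ERAA, 15 in ERDD against ERPHF8, 25 between the library pairs in wt, 21 in PHF8 and 25 in F279S, and 23 and 21 in the pair differences of PHF8 against wt and against F279S. Fewer members were tested there, and the part of this in the lower counts was not tested. Leaving out each library in turn gave 0 to 1 called members in PHF8 against F279S, the 1 being NOP10 without F279S library 3 (-0.48). It gave 22 to 36 between the library pairs in PHF8, 36 to 41 in ERDD against ERAA, 29 to 38 in ERPHF8 against ERAA, 22 to 32 in ERDD against ERPHF8, and 33 to 39 and 27 to 37 in the pair differences of PHF8 against wt and F279S. Of the other medians, 19 values under alternatives moved by more than the spread between libraries, 6 under median-of-ratios scaling, 8 with 1 library left out and 5 among genes that overlap no other, and 0 of them changed sign. Of the single members named, NOP10 in ERDD against ERAA lost its call without a filter on low values and without either ERDD library, and 0 others did. Where a comparison of groups left 1 library in an arm, that library was assumed to vary like the others. The replicate block changed no other count of calls by over 1.5 times, and in the second experiment, where the numbers only name the libraries, it called 39, 33 and 28 members in the 3 comparisons. It called 39 and 38 members in the pair differences of PHF8 against wt and against F279S. Swapping the ERAA numbers, an alternative chosen after seeing the data, called 35 members in ERPHF8 against ERAA, against 33 without a block. No paired analysis was possible between the library pairs within a line, because each replicate number belongs to 1 pair. The cause of the changes under the alternatives was not tested. With 2 libraries a group and pair, small differences may not have been detectable, and reads of 16 members can be shared with overlapping genes.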
